A study of Mus musculus with 15 samples.

Results

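The genes described here encode the subunits of the mitochondrial respiratory chain and ATP synthase in mouse liver, in mice fed freely or fasted on a schedule. They are the protein-coding genes of the deposited count table whose symbols begin with Nduf (followed by a, b, c, s or v), Uqcr, Cox4 to Cox8, Atp5, mt-Nd, mt-Co, mt-Cytb or mt-Atp, together with Sdha to Sdhd and Cyc1. This symbol rule found 106 of 35275 genes. Of these, 93 lie in the nuclear genome and 13 are all the protein-coding genes of mitochondrial DNA. By complex, the nuclear members were 36 of complex I, 4 of complex II, 9 of complex III, 20 of complex IV and 15 of complex V, and the other 9 were 7 Ndufaf genes for complex I assembly factors plus Atp5s and Atp5sl. The mitochondrial members were 7 of complex I, 1 of complex III, 3 of complex IV and 2 of complex V. Ndufa4 and its relative Ndufa4l2 carry complex I names but are counted here with complex IV, where the NDUFA4 protein is known to reside.

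The study measured poly(A)-selected RNA from the left lateral liver lobe of C57BL/6 mice by sequencing, with 5 libraries in each of 3 groups. The groups were ad libitum feeding (AL), intermittent fasting of 16 h (IF16) and fasting of 24 h, called every-other-day (EOD), each kept up for 3 months. Mice entered at 3 months of age and were 6 months old at the end. Whether every library comes from its own mouse, and when food was last given before sampling, is not stated. The p-values therefore measure the variation among libraries, part of which may be technical.

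Complexes I to IV pass electrons from NADH and succinate to oxygen and pump protons across the inner mitochondrial membrane, except complex II, which pumps none, and complex V uses the proton gradient to make ATP. All complexes but II mix subunits from both genomes: nuclear subunits are made in the cytosol and imported, whereas the mitochondrial ones are cut from long polycistronic RNAs transcribed from both strands of the mitochondrial genome. Liver relies on this machinery during fasting, when electrons come largely from the oxidation of fatty acids.

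Between 28129883 and 38147534 counts were listed per library, and 3 counts corresponded to 0.0786 to 0.107 CPM (the usual per-million scale of read counts, here over the library total). Genes with enough counts for the test numbered 13837, including 88 nuclear and 12 mitochondrial members. The 6 members left out were Cox4i2, Cox6a2, Cox7b2, Cox8b, Cox8c and mt-Atp8. The hepatocyte marker list was present at 95385 to 136360 CPM in sum in every library, and none of its 8 genes was at 0. Among markers of other cells, 6 of 8 sinusoidal endothelial genes were called higher in EOD than in AL and 5 of 8 higher in IF16 than in AL (sums of 94.1 to 172 CPM in AL, 198 to 234 in IF16 and 192 to 250 in EOD). In EOD against AL, 3 of 8 stellate cell genes were called higher and 1 lower, 6 of 8 acute phase genes lower and 1 higher, and both tested neutrophil genes lower. Of all genes, 17.6% were called each way in EOD against AL, and 1.4% higher in IF16 against AL. The sum of acute phase transcripts ran from 4007 to 29842 CPM in AL, against 3962 to 5357 in IF16 and 4111 to 4876 in EOD. It was high in AL replicates 4 and 5. So were the neutrophil genes S100a8 and S100a9, at 9.67 to 14.5 CPM, against 0.322 to 1.03 in AL replicates 1 to 3. In EOD these genes had 0.503 to 1.82 CPM. The part of these other cells and transcripts in the results below was not tested. In bulk tissue, fewer cells of a type and less RNA per cell cannot be told apart.

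The share of RNA taken by the mitochondrial members was lowest in EOD. Together the 13 mitochondrial genes took 10.36%, 15.07%, 11.97%, 10.03% and 10.01% of all counts in AL replicates 1 to 5. In IF16 they took 8.98%, 9.54%, 10.49%, 11.43% and 11.47%. In EOD they took 6.83%, 6.35%, 5.34%, 5.84% and 10.1%. Replicates 1 to 4 of EOD were below every AL and IF16 library, and EOD replicate 5 was within the ranges of AL and IF16. The nuclear members together took a far smaller share, 1.66 to 1.85% in AL, 1.81 to 2.20% in IF16 and 1.84 to 2.33% in EOD. Here too EOD replicate 5 (1.84%) was within the ranges of AL and IF16. These shares are over all counts, so a lower mitochondrial share by itself raises the nuclear one. Over non-mitochondrial counts the nuclear members took 1.84 to 2.18% in AL, 1.99 to 2.46% in IF16 and 2.05 to 2.47% in EOD. These ranges overlapped, with means of 2.01%, 2.31% and 2.29%. The ratio of mitochondrial to nuclear member counts was 6.45 ± 0.9999 in AL, 5.02 ± 0.332 in IF16 and 3.31 ± 1.27 in EOD (mean ± SD, n = 5 libraries each). All 5 IF16 libraries (4.65 to 5.42) were below all 5 AL libraries (5.68 to 8.13). EOD replicates 1 to 4 (2.34 to 3.35) were lower still, and EOD replicate 5 stood at 5.47, between the IF16 and AL ranges. Because this ratio sums over the members, it is given without a test.

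**Figure D1:**
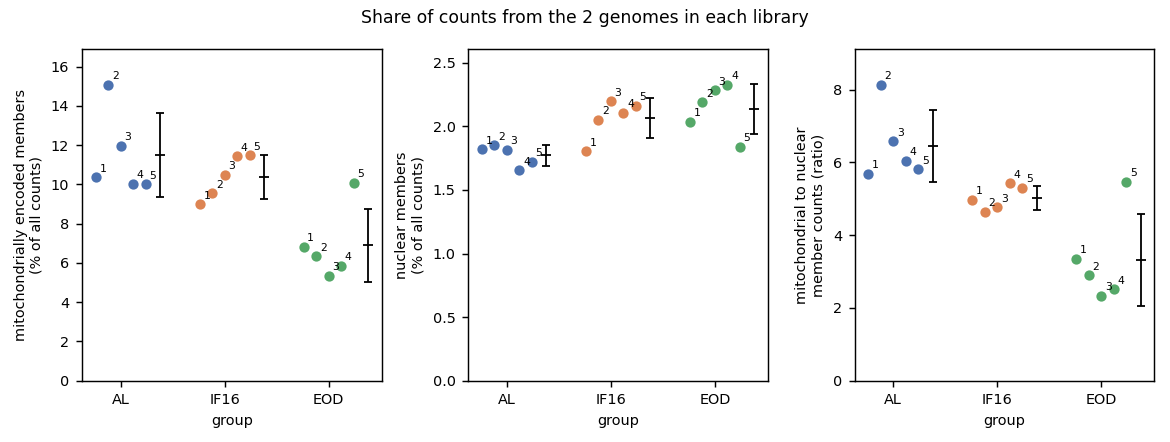
Each point is 1 library, numbered by replicate, and black bars are the mean and SD of 5 libraries. The left panel shows the percent of counts from the 13 mitochondrially encoded members and the middle panel that from the 93 nuclear members. The right panel shows the ratio of the first to the second. EOD replicate 5, at 10.1% and 1.84%, lies apart from the other EOD libraries and within the ranges of both AL and IF16. Its ratio, 5.47, lies between those of IF16 and AL.

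EOD replicate 5 also differed from its group in Malat1, a noncoding RNA kept in the nucleus, at 305 CPM against 53.1 to 103 CPM in the other EOD libraries and 121 to 245 CPM in AL. The AL library with the highest mitochondrial share, replicate 2, had the highest Malat1 of AL, 245 CPM. AL replicate 4 came next in Malat1, at 217 CPM, with a mitochondrial share of only 10.03%. Whether these values bear on the members was not tested. In what follows, results in EOD are given with all 5 libraries, and the counts by complex in EOD against AL are repeated without replicate 5.

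EOD against AL was the comparison with the most changes, and the calls differed by genome. By the edgeR quasi-likelihood test at an adjusted p of 0.05 over all tested genes, 27 of 100 tested members were higher in EOD and 19 were lower, where 17.6% of all genes tested were higher and 17.6% were lower. All 27 higher members were nuclear. The 19 lower members were 11 of the 12 mitochondrial genes tested and 8 of 88 nuclear ones. The median log2 fold change was 0.18 for nuclear members, −0.81 for mitochondrial members and −0.01 for all tested genes. Without EOD replicate 5, 39 members were higher and 17 lower, with medians of 0.25 and −1.01. Among the 27 higher members, EOD replicate 5 was the lowest EOD library in 25, and among the 11 lower mitochondrial members it was the highest EOD library in 10. Without AL replicates 4 and 5 the counts were 22 higher and 17 lower, 11 of them mitochondrial.

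IF16 against AL gave 1 called member among 100. Atp5k was higher, where 1.4% of all genes were called higher, and no member was lower, where 2.1% were. The signs were nonetheless split by genome: 80 of 88 nuclear log2 fold changes were above 0, with a median of 0.23, and 11 of 12 mitochondrial ones were below 0, with a median of −0.11, while the median of all genes was 0.00 to 2 decimals. At an unadjusted p of 0.05, 32 members were higher and 1 was lower in this edgeR test, where 8.77% of all genes were higher and 9.87% lower, and the DESeq2 Wald test called 5 higher and 1 lower. Leaving out IF16 replicate 1 raised the number called higher to 7 and leaving out EOD replicate 5 raised it to 5. Leaving out any 1 AL library, or IF16 replicate 2, 3, 4 or 5, lowered it to 0.

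EOD against IF16, the direct test of the regimens against each other, gave 6 members higher and 21 lower, where 7.96% of all genes were higher and 8.15% lower. The lower members were 11 mitochondrial genes and 10 nuclear ones. Without EOD replicate 5, 17 were higher and 19 lower. The number higher was 1 without EOD replicate 3, 2 without EOD replicate 1 or IF16 replicate 5, and 3 without EOD replicate 2 or IF16 replicate 4. EOD libraries enter both EOD comparisons and AL libraries enter both comparisons with AL, so these results are not independent of each other.

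**Figure D2:**
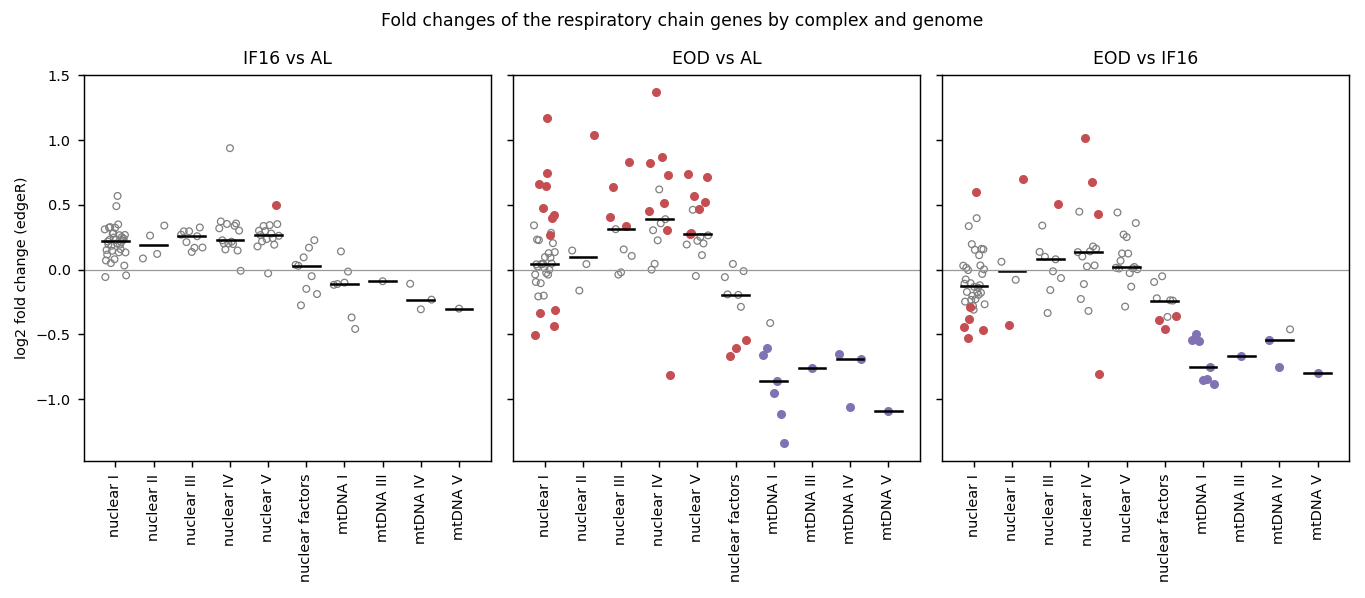
Each point is the log2 fold change of 1 tested member in the edgeR fit, grouped by genome and complex; filled points passed an adjusted p of 0.05 and black bars are medians. In EOD against AL the 27 filled nuclear points above 0 and the 11 filled mitochondrial points below 0 lie apart, while in IF16 against AL 1 point is filled.

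In EOD against AL 11 of the 12 tested mitochondrial genes fell, with log2 fold changes from −1.34 to −0.61, and mt-Nd3 did not pass. Levels per gene length are given as FPKM, which divides counts by gene length and library total, and levels by library as CPM scaled by TMM, a correction for library composition. In AL the highest mean FPKM was that of mt-Co1, the catalytic subunit of complex IV, at 27387, followed by mt-Cytb, the cytochrome b of complex III, at 18600. The complex I genes mt-Nd2 and mt-Nd1 had 14619 and 13173. Nuclear members had a median of 157 FPKM over all libraries, and mitochondrial members tested a median of 3600 FPKM.

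The largest fall was that of mt-Nd6, the complex I subunit encoded alone among the proteins on the other strand of the mitochondrial genome. It had 2566, 3604, 2967, 2594 and 2196 CPM in AL, 1870, 1833, 1906, 2433 and 2099 in IF16, and 991, 997, 660, 900 and 1944 in EOD. All EOD libraries were below all AL libraries, and EOD replicates 1 to 4 were also below all IF16 libraries. The log2 fold change of EOD against AL was −1.34 (SE 0.22, adjusted p 0.000264), and that against IF16 was −0.88 (SE 0.22, adjusted p 0.0121).

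Its neighbour mt-Nd5, a proton-pumping subunit of complex I, overlaps mt-Nd6 on the opposite strand. Its log2 fold change against AL was −1.118 (SE 0.21, adjusted p 0.000604), from 6827 to 10333 CPM in AL to 2355 to 6494 in EOD. The library preparation is not described as marking strand, and no source at hand states how strand was treated in counting. Reads from the overlap of mt-Nd5 and mt-Nd6 therefore cannot be told apart. Elsewhere in mt-Nd6, reads of RNA from the opposite strand may also have been counted to it. How much of the mt-Nd6 difference comes from such reads was not tested.

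Of the other mitochondrial genes of complex I, 4 fell and mt-Nd3 did not pass. mt-Nd4 changed by −0.95 (SE 0.20, adjusted p 0.00166), from 9531 to 14348 CPM in AL to 4193 to 9406 in EOD, with no overlap. mt-Nd1 changed by −0.66 (adjusted p 0.00189), and mt-Nd2 by −0.61 (adjusted p 0.00765) with EOD replicate 5 inside the AL range. mt-Nd4l changed by −0.86 (adjusted p 0.00261), with EOD replicate 5 (15.4 CPM) inside the AL range (13.8 to 18.7 CPM). mt-Nd3 had 49.0 to 67.3 CPM in AL and 28.8 to 51.4 in EOD, overlapping, and a log2 fold change of −0.41 (adjusted p 0.0846) that missed the threshold. Against IF16 mt-Nd3 passed, at −0.55 (adjusted p 0.0454), but in only 5 of 15 fits that left out 1 library, with adjusted p up to 0.144.

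The 5 tested mitochondrial genes of complexes III to V were called lower as well. mt-Cytb had 17476 to 28219 CPM in AL and, in EOD, 11500, 11677, 9898, 11204 and 18262, so that only replicate 5 reached the AL range (log2 fold change −0.76, SE 0.17, adjusted p 0.003). mt-Co1 changed by −0.65 (SE 0.13, adjusted p 0.00135), and its EOD libraries (24132 to 32775 CPM) were below every AL (35649 to 54072) and every IF16 library (32813 to 44475). mt-Co2, which carries the copper site that accepts electrons from cytochrome c, had 407, 479, 400, 325 and 342 CPM in AL, 269, 344, 400, 299 and 269 in IF16, and 161, 164, 178, 185 and 250 in EOD. EOD was below all other libraries, with log2 fold changes of −1.06 against AL (SE 0.15, adjusted p 5.33e-05) and −0.75 against IF16 (SE 0.15, adjusted p 0.00253). mt-Co3 changed by −0.69 against AL (adjusted p 0.00282) and did not pass against IF16 (−0.46, adjusted p 0.0546). mt-Atp6, the proton channel subunit of ATP synthase, changed by −1.10 against AL (SE 0.18, adjusted p 0.000231), from 270 to 437 CPM to 128 to 243. None of the 12 tested mitochondrial genes was called in IF16 against AL, in edgeR or at an unadjusted p of 0.05; mt-Nd6 had the largest difference there, −0.46 (SE 0.22, adjusted p 0.271).

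**Figure D3:**
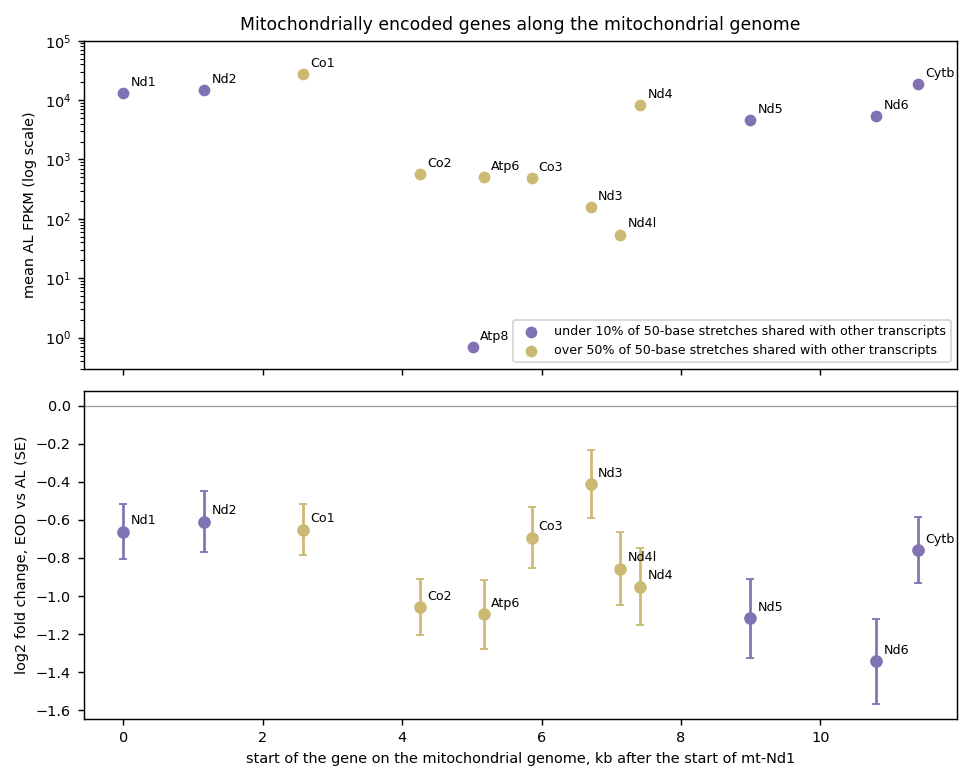
The 13 mitochondrial protein genes are placed by their distance in kb from the start of mt-Nd1; the upper panel gives the mean FPKM in AL on a log scale, the lower panel the log2 fold change of EOD against AL with its SE for the 12 genes tested. Yellow marks genes with over 50% of their 50-base stretches in other transcripts; of these mt-Co2, mt-Atp6, mt-Co3, mt-Nd3 and mt-Nd4l lie at 54.2 to 575 FPKM, and mt-Co1 and mt-Nd4 higher.

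A stretch of nuclear DNA repeats part of the mitochondrial genome. The deposited table lists 7 genes on chromosome 1, between 24611535 and 24616197 on the minus strand (mm10), that GENCODE M21 names as gene models and that copy mt-Co1, mt-Co2, mt-Atp6, mt-Co3, mt-Nd3, mt-Nd4l and mt-Nd4 in whole or in part. For mt-Co2, mt-Atp6, mt-Co3, mt-Nd4l and mt-Nd4 the copy was 100% identical over its aligned length, and for mt-Nd3 it differed at 1 base of 345. The first 60 bases of mt-Nd3 and of its copy are shown because they hold the 1 base at which the aligned stretches differ; it is in capitals.
mt-Nd3: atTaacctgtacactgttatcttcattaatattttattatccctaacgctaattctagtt
Gm28438: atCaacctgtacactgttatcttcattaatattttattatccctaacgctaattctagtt
Between 98.0% and 100% of the 50-base stretches of mt-Co2, mt-Atp6, mt-Co3, mt-Nd3 and mt-Nd4l recurred in other GENCODE M21 transcripts, against 62.2% of mt-Nd4, 51.1% of mt-Co1, 8.19% or less of mt-Nd2 and mt-Nd5, and none of mt-Nd1, mt-Nd6 and mt-Cytb. The first 5 genes had AL means of 54.2 to 575 FPKM, and the other 7 tested ones 4546 to 27387.

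The copies themselves carried counts. Over the 15 libraries, 47.1% of the counts shared between mt-Co2 and its copy were listed under the copy, 58.7% for mt-Atp6, 49.1% for mt-Co3, 61.6% for mt-Nd3 and 45.7% for mt-Nd4l, but 0.875% for mt-Co1 and 0.914% for mt-Nd4. How reads that match both places were assigned is not stated. The listed levels of mt-Co2, mt-Atp6, mt-Co3, mt-Nd3 and mt-Nd4l, and their order among the others, are therefore uncertain. The levels of mt-Co1 and mt-Nd4 are uncertain too, since 51.1% and 62.2% of their stretches recurred in other transcripts. Their low copy percentages do not settle this, because the counts of mt-Co1 and mt-Nd4 include stretches that are not shared. All 7 copies were called lower in EOD than in AL, with log2 fold changes from −1.31 to −0.56. The copies are 98.8% to 100% identical to the mitochondrial genes where aligned, so their counts may be of mitochondrial reads. These calls are therefore not separate from those of the mitochondrial genes, and whether the copies are transcribed was not tested. When the counts of each copy were added to its mitochondrial gene, a choice made after these counts were seen, the 7 sums changed by −1.14 to −0.50 and all were lower, including mt-Nd3 (−0.50, SE 0.17, adjusted p 0.0298). mt-Nd1, mt-Nd6 and mt-Cytb, which share no such stretch, changed by −0.66, −1.34 and −0.76. The second gene of complex V, mt-Atp8, which overlaps mt-Atp6, had 0 to 8 counts per library and was not tested.

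Of the 36 nuclear genes of complex I, 8 were higher in EOD than in AL and 4 lower, where 17.6% of all genes were called each way, and their median log2 fold change was 0.05. Without EOD replicate 5, 10 were higher and 2 lower, with a median of 0.13. Among the higher genes were Ndufb8, Ndufb9, Ndufa7, Ndufb6, Ndufb11, Ndufv1 and Ndufs6, with log2 fold changes from 0.40 (Ndufs6) to 1.17 (Ndufb8). Ndufb names mark accessory subunits of the membrane arm, while Ndufv1 encodes a core subunit at the NADH site.

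Ndufb8 (chromosome 19, 44548572 to 44555440, minus strand, mm10) had 40.4, 30.1, 37.0, 36.2 and 42.4 CPM in AL, 48.3, 64.5, 62.6, 43.9 and 57.2 in IF16, and 83.2, 87.7, 108, 96.8 and 44.0 in EOD. All EOD and all IF16 libraries were above all AL libraries. The difference from AL passed in EOD (log2 fold change 1.17, SE 0.18, adjusted p 0.000166) and missed the threshold in IF16 (0.57, SE 0.18, adjusted p 0.0987), and EOD was higher than IF16 (0.60, SE 0.18, adjusted p 0.0328). The gene overlaps the gene model Gm20538, so its counts may have been divided. Ndufb9, the most abundant nuclear complex I gene over all libraries at 502 FPKM, rose by 0.75 on the log2 scale (SE 0.14, adjusted p 0.000592), from 233 to 272 CPM in AL to 285 to 532 in EOD. Ndufa7 rose by 0.67 (adjusted p 0.00147), from 116 to 135 CPM to 147 to 240.

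The 4 lower genes were Ndufa10 (−0.50), Ndufs8 (−0.43), Ndufa8 (−0.33) and Ndufv3 (−0.31). Ndufs8 encodes a core iron-sulfur subunit, and Ndufa10 and Ndufa8 encode accessory subunits. Ndufa10 had 204, 239, 215, 171 and 189 CPM in AL, 177, 195, 199, 212 and 195 in IF16, and 135, 144, 134, 143 and 163 in EOD. EOD was below every other library, with log2 fold changes of −0.50 against AL (SE 0.10, adjusted p 0.000991) and −0.45 against IF16 (SE 0.10, adjusted p 0.00622), and −0.06 between IF16 and AL (adjusted p 0.815). Here EOD replicate 5 was the EOD library closest to AL. Ndufs8 had 99.1 to 123 CPM in AL and 71.7 to 99.7 in EOD, with EOD replicate 4 inside the AL range (adjusted p 0.00821). Without EOD replicate 5, Ndufa8 (−0.26, adjusted p 0.057) and Ndufv3 (−0.27, adjusted p 0.085) no longer passed.

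By role, 2 of 7 core genes were higher and 1 lower in EOD than in AL, and 6 of 29 accessory genes were higher and 3 lower. Of all genes, 17.6% were called each way. Against IF16, Ndufb8 was the 1 complex I gene higher in EOD, and Ndufa5, Ndufs8, Ndufa10, Ndufa8 and Ndufa9 were lower. Ndufa5, an accessory subunit of the matrix arm, had 166 to 221 CPM in AL, 159 to 298 in IF16 and 151 to 181 in EOD, so that its difference between EOD and IF16 (−0.53, adjusted p 0.016) came with a mean that was highest in IF16. Ndufb2 was listed at only 58 to 135 counts per library. It overlaps 3 annotated genes, and its level is uncertain. Nuclear members also share sequence with other transcripts. Among the 27 members higher in EOD than in AL, Ndufb6 had the largest share of 50-base stretches found elsewhere, 31.6%. All of these stretches recurred in transcripts of 1 other gene, Smim27.

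Several complex I genes shared a short sequence just after their transcription start. RefSeq promoter windows of 300 bases (250 before the start and 50 after it, GRCm38.p6) were found by symbol or gene identifier for 73 of 93 nuclear members. Member windows on a chromosome left out of this search were not used, whereas the share of all genes had no such filter. The windows were searched on both strands for AAGATGGC, a form of the recognition sequence of the factor YY1. It occurred in 7 of 32 complex I genes with a window (21.9%), in 2 of 13 of complex V (15.4%) and in none of complexes II, III and IV, against 3.19% of all genes in the table. In each case it stood on the strand of the gene, and in all but Atp5j, where it lay 88 bases before the start, its first base was 23 to 39 bases into the transcript. The bases around it in these 8 genes are shown to let the flanking bases be compared, with the match in capitals.
Ndufb8: ggagaaggtgAAGATGGCtgcc
Ndufa3: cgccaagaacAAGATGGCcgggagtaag
Ndufc1: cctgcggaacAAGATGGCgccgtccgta
Ndufs7: ggccgaggccAAGATGGCggcgctggcg
Ndufa9: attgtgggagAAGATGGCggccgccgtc
Ndufs6: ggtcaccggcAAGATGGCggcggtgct
Ndufs4: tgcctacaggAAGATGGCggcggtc
Atp5j2: ccaggacttcAAGATGGCgtcactcggt
Ndufb8 and Ndufs6 were higher in EOD than in AL. Ndufa3, Ndufc1, Ndufs7, Ndufa9, Ndufs4 and Atp5j2 did not pass, so these genes did not share a call. Yy1 itself rose in EOD (log2 fold change 0.47, adjusted p 0.00269). A match is a description of letters and was not tested as a site. AAGATGGC also contains ATG, and whether the coding sequence of these genes begins there was not tested.

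Complex II, succinate dehydrogenase, has only nuclear subunits and also serves the tricarboxylic acid cycle. Its 4 genes did not move together. Sdhd, a membrane anchor (chromosome 9, 50596338 to 50603849, minus strand, mm10), had 157, 93.2, 136, 121 and 129 CPM in AL, 174, 192, 173, 117 and 149 in IF16, and 287, 289, 345, 252 and 137 in EOD. EOD replicates 1 to 4 were above every other library, and replicate 5 was inside the AL range. It was higher in EOD than in AL (log2 fold change 1.04, SE 0.20, adjusted p 0.000904) and than in IF16 (0.70, SE 0.20, adjusted p 0.0249), and by 1.23 and 0.89 without EOD replicate 5. The call against IF16 held in 10 of 15 fits that left out 1 library (adjusted p up to 0.0654). The other anchor, Sdhc, had 191 to 222 CPM in AL, 209 to 243 in IF16 and 177 to 234 in EOD, overlapping throughout (EOD against AL 0.04, SE 0.09, adjusted p 0.744). The flavoprotein Sdha had 384, 205, 331, 320 and 301 CPM in AL and 290 to 375 in EOD (0.15, SE 0.14, adjusted p 0.436). The iron-sulfur subunit Sdhb, the most abundant of the 4 at 230 FPKM, had 232 to 320 CPM in AL, 275 to 362 in IF16 and 218 to 279 in EOD. It did not pass against AL (−0.16, adjusted p 0.266) but was lower in EOD than in IF16 (−0.43, SE 0.11, adjusted p 0.0145), opposite in direction to Sdhd.

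The promoter windows were also searched for CCGGAAG, a form of the recognition sequence of ETS factors such as GABP, and for GCATGCGC, that of NRF1, both long known as regulators of respiratory genes. That of Sdhd (chr9:50603800-50604099, minus strand, GRCm38.p6) is shown because it belongs to the gene with the largest change in complex II; the ETS sequence, here on the opposite strand, is in capitals.
Sdhd: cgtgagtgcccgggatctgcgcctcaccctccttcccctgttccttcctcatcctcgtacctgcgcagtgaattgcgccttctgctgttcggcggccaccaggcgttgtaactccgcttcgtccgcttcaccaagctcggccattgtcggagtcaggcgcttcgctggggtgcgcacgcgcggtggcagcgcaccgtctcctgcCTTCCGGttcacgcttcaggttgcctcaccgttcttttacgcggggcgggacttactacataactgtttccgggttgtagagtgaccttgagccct
The window of Sdhb held both sequences and that of Sdha neither, and Sdhc had no window in the table.

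Complex III genes were called higher in EOD than in AL in 4 of 9 cases and lower in none, where 17.6% of all genes were called each way. None was lower at an unadjusted p of 0.05 in edgeR either. Their median log2 fold change was 0.31. Leaving out EOD replicate 5 gave 6 higher genes. The higher genes over all libraries were Uqcrh, Uqcr10, Cyc1 and Uqcrfs1. Uqcrh, the hinge protein that helps cytochrome c dock, had 170, 164, 189, 177 and 190 CPM in AL, 192, 236, 255, 212 and 221 in IF16, and 289, 332, 394, 363 and 209 in EOD. Both fasted groups lay above all AL libraries, and the difference passed in EOD (0.84, SE 0.14, adjusted p 0.00023) but not in IF16 (0.33, SE 0.14, adjusted p 0.205). EOD also exceeded IF16 (0.51, SE 0.14, adjusted p 0.0178). Uqcr10, a small accessory subunit, rose by 0.64 (adjusted p 0.00289), from 172 to 191 CPM to 192 to 366. The electron-carrying subunits Cyc1 (cytochrome c1) and Uqcrfs1 (the Rieske iron-sulfur protein) rose by 0.41 (adjusted p 0.00703) and 0.34 (adjusted p 0.0146). For both, EOD replicate 5 (209 CPM of Cyc1, 251 CPM of Uqcrfs1) lay within AL and the other 4 EOD libraries above it. Uqcr11, the most abundant at 695 FPKM, had 328 to 437 CPM in AL and 345 to 565 in EOD (0.31, adjusted p 0.109), and passed without EOD replicate 5 (0.43, adjusted p 0.0219). mt-Cytb, the 1 mitochondrial subunit of complex III, moved the other way.

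In complex IV, 7 of 15 tested nuclear genes were higher in EOD than in AL and 1 was lower (17.6% of all genes each way), with a median log2 fold change of 0.39, while the 3 mitochondrial genes were all lower. Without EOD replicate 5, 11 nuclear genes were higher and 1 lower. The higher genes were Cox6b2, Cox7a2l, Cox5a, Ndufa4, Cox7b, Cox4i1 and Cox8a. Cox7a2l, known for its part in joining complexes III and IV into supercomplexes, had 73.2, 49.8, 73.1, 76.4 and 76.2 CPM in AL, 88.0, 87.4, 79.7, 69.0 and 76.0 in IF16, and 140, 128, 156, 117 and 97.2 in EOD. Every EOD library was above every other, with log2 fold changes of 0.87 against AL (SE 0.14, adjusted p 0.000142) and 0.67 against IF16 (SE 0.14, adjusted p 0.00314), and IF16 against AL missed the threshold (0.20, SE 0.13, adjusted p 0.47). Cox5a, an early assembling subunit, rose by 0.82 (SE 0.17, adjusted p 0.00144), from 27.6 to 49.2 CPM in AL to 51.7 to 90 in EOD. Ndufa4 rose by 0.73 against AL (SE 0.14, adjusted p 0.000756) and by 0.43 against IF16 (adjusted p 0.0426), where the call held in 6 of 15 fits that left out 1 library (adjusted p up to 0.109). Cox6a1, the most abundant nuclear member of all by length at 1341 FPKM, had 690 to 784 CPM in AL and 689 to 1044 in EOD (0.30, adjusted p 0.0703), and passed without EOD replicate 5 (0.42, adjusted p 0.00802).

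Complex IV also has subunit forms named for other tissues or conditions. Ndufa4l2, known as a low-oxygen form of Ndufa4, was the lower gene: 2.03, 2.35, 1.86, 1.14 and 1.62 CPM in AL and 0.884, 0.882, 0.746, 1.03 and 1.57 in EOD, where replicates 1 to 4 lay below AL (−0.82, SE 0.23, adjusted p 0.0101). Its sign was thus opposite to that of Ndufa4. It overlaps Shmt2, which was also lower in EOD (−0.55, adjusted p 0.000241). Cox6b2, known from testis, had 0.207 to 0.449 CPM in AL and 0.634 to 1.33 in EOD (1.37, SE 0.33, adjusted p 0.0039), a level of under 1 FPKM in AL. Cox7a1, the heart and muscle form of Cox7a, had 2.03, 3.52, 2.97, 2.28 and 3.24 CPM in AL and 2.49, 4.03, 6.51, 4.91 and 8.94 in IF16, without a call (0.94, SE 0.27, adjusted p 0.062).

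The highest of those Cox7a1 values, IF16 replicate 5, belonged to a library with muscle transcripts. The 7 muscle markers summed to 122 CPM there, with Acta1 at 46.1, Tnnt3 at 28.6 and Mb at 25.3, against at most 1.93 in any other library. The same library held 173 counts of Cox6a2 and 153 of Cox8b, the muscle forms of these subunits, where the other 14 had 0 to 5 and 0 to 10. Without it the Cox7a1 difference between IF16 and AL was 0.68 (adjusted p 0.182), and without IF16 replicate 1 it passed (1.121, adjusted p 0.0129). Cox4i2, the lung form of Cox4, had 0 to 12 counts in each library, Cox8c had 3 counts in IF16 replicate 5 and 0 elsewhere, and Cox7b2 had 0 in every library, which allows up to 3 counts, or 0.107 CPM in the smallest library.

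In complex V, 7 of the 15 nuclear genes were called higher in EOD than in AL and none lower (against 17.6% of all genes each way). None was lower at an unadjusted p of 0.05 in edgeR either. The median log2 fold change was 0.28, and 14 of 15 were above 0. With EOD replicate 5 left out, 11 were higher and the median was 0.35. The higher genes were Atp5b, Atp5l, Atp5f1, Atp5k, Atp5g3, Atp5d and Atp5c1. Atp5b, the catalytic beta subunit, had 781, 487, 696, 731 and 696 CPM in AL, 952, 935, 850, 652 and 787 in IF16, and 1231, 1182, 1360, 1086 and 814 in EOD. EOD lay above AL in every library (0.74, SE 0.15, adjusted p 0.00116). EOD and IF16 overlapped, and their difference missed the threshold (0.44, SE 0.15, adjusted p 0.0519) but passed without EOD replicate 5 (0.57, adjusted p 0.00711). Atp5l, a membrane subunit, rose by 0.71 (SE 0.13, adjusted p 0.000673), and Atp5f1, of the peripheral stalk, by 0.57 (SE 0.13, adjusted p 0.00301). Atp5g3, 1 of 3 genes for the proton-carrying c ring and the most abundant at 669 FPKM, had 413 to 502 CPM in AL, 521 to 646 in IF16 and 514 to 728 in EOD. Both fasted groups lay above AL without overlap, and EOD passed (0.47, adjusted p 0.00269) while IF16 did not (0.34, SE 0.11, adjusted p 0.0833). mt-Atp6 fell in the same EOD libraries.

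Atp5k (chromosome 5, 108433244 to 108434448, minus strand, mm10), whose product helps ATP synthase pair into dimers, was the 1 member called in IF16. It had 79.5, 77.1, 70.4, 83.1 and 79.4 CPM in AL, 85.8, 98.3, 130, 116 and 121 in IF16, and 98.3, 111, 138, 122 and 90.5 in EOD. Both fasted groups lay above AL in every library, by 0.50 in IF16 (SE 0.13, adjusted p 0.0325) and 0.52 in EOD (SE 0.13, adjusted p 0.00401), and EOD and IF16 differed by 0.02 (SE 0.13, adjusted p 0.929). The IF16 call was lost without AL replicates 4 and 5 and without any 1 AL library or IF16 replicate 2, 3, 4 or 5. Over the 15 fits that left out 1 library, its adjusted p ran from 0.0138 to 0.122. Its promoter window (chr5:108434350-108434649, minus strand, GRCm38.p6) is shown because it held the NRF1 sequence, on both strands of 1 palindrome, and the ETS sequence; both are in capitals.
Atp5k: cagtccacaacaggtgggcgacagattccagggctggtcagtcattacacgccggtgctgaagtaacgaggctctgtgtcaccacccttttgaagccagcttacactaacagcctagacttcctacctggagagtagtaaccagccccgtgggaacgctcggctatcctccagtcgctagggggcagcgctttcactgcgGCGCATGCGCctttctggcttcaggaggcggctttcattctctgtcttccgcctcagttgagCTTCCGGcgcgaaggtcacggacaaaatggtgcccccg

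Over the 73 members with a window, the NRF1 sequence was present in 16.4% and the ETS sequence in 23.3%, against 3.05% and 9.93% of all genes in the table. Among the 22 higher in EOD than in AL, 9.09% held the NRF1 sequence and 27.3% the ETS sequence; among the 42 not called, 21.4% held each. Of the 7 lower in EOD, 14.3% held the NRF1 sequence and 28.6% the ETS sequence. No test was made of these shares.

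**Figure D4:**
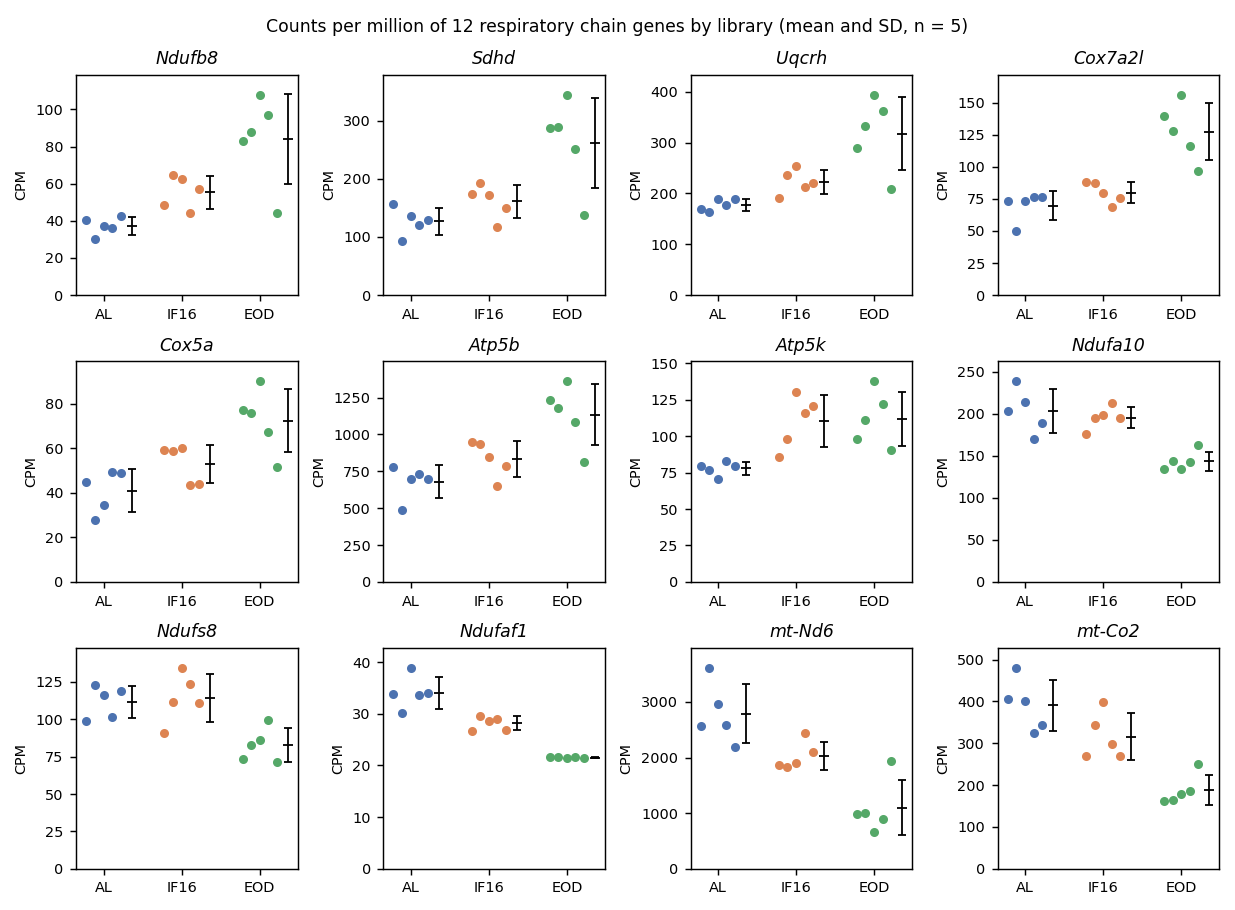
CPM of 12 members in every library, with the mean and SD of 5 libraries beside each group and axes that start at 0. Ndufb8, Sdhd and Uqcrh are high in 4 EOD libraries, Cox7a2l in all 5, Atp5k in both fasted groups, and Ndufa10, Ndufaf1, mt-Nd6 and mt-Co2 are low in EOD.

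Assembly factors of complex I included 3 that fell. Of the 9 nuclear members that are not subunits, none was higher in EOD than in AL, in edgeR or at an unadjusted p of 0.05. Ndufaf1, Ndufaf3 and Ndufaf7 were lower, where 17.6% of all genes were called each way. The median log2 fold change was −0.19 over the 9. The counts were the same without EOD replicate 5. Ndufaf1, a chaperone for the membrane arm of complex I, had 33.9, 30.1, 38.8, 33.6 and 34.0 CPM in AL, 26.7, 29.6, 28.7, 29 and 26.8 in IF16, and 21.6, 21.5, 21.4, 21.7 and 21.4 in EOD. The groups formed 3 steps without overlap, and EOD replicate 5 was with its group. EOD was lower than AL (−0.66, SE 0.08, adjusted p 1.49e-05) and than IF16 (−0.39, SE 0.08, adjusted p 0.00392), while IF16 against AL missed the threshold (−0.28, SE 0.08, adjusted p 0.0657). Ndufaf3 had 12.9 to 16.4 CPM in AL, 11.5 to 14 in IF16 and 8.85 to 10.8 in EOD (−0.61 against AL, adjusted p 0.000277, and −0.46 against IF16, adjusted p 0.00629). Ndufaf7, a methyltransferase of complex I assembly, fell by 0.55 on the log2 scale against AL (adjusted p 0.00136).

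**Figure D5:**
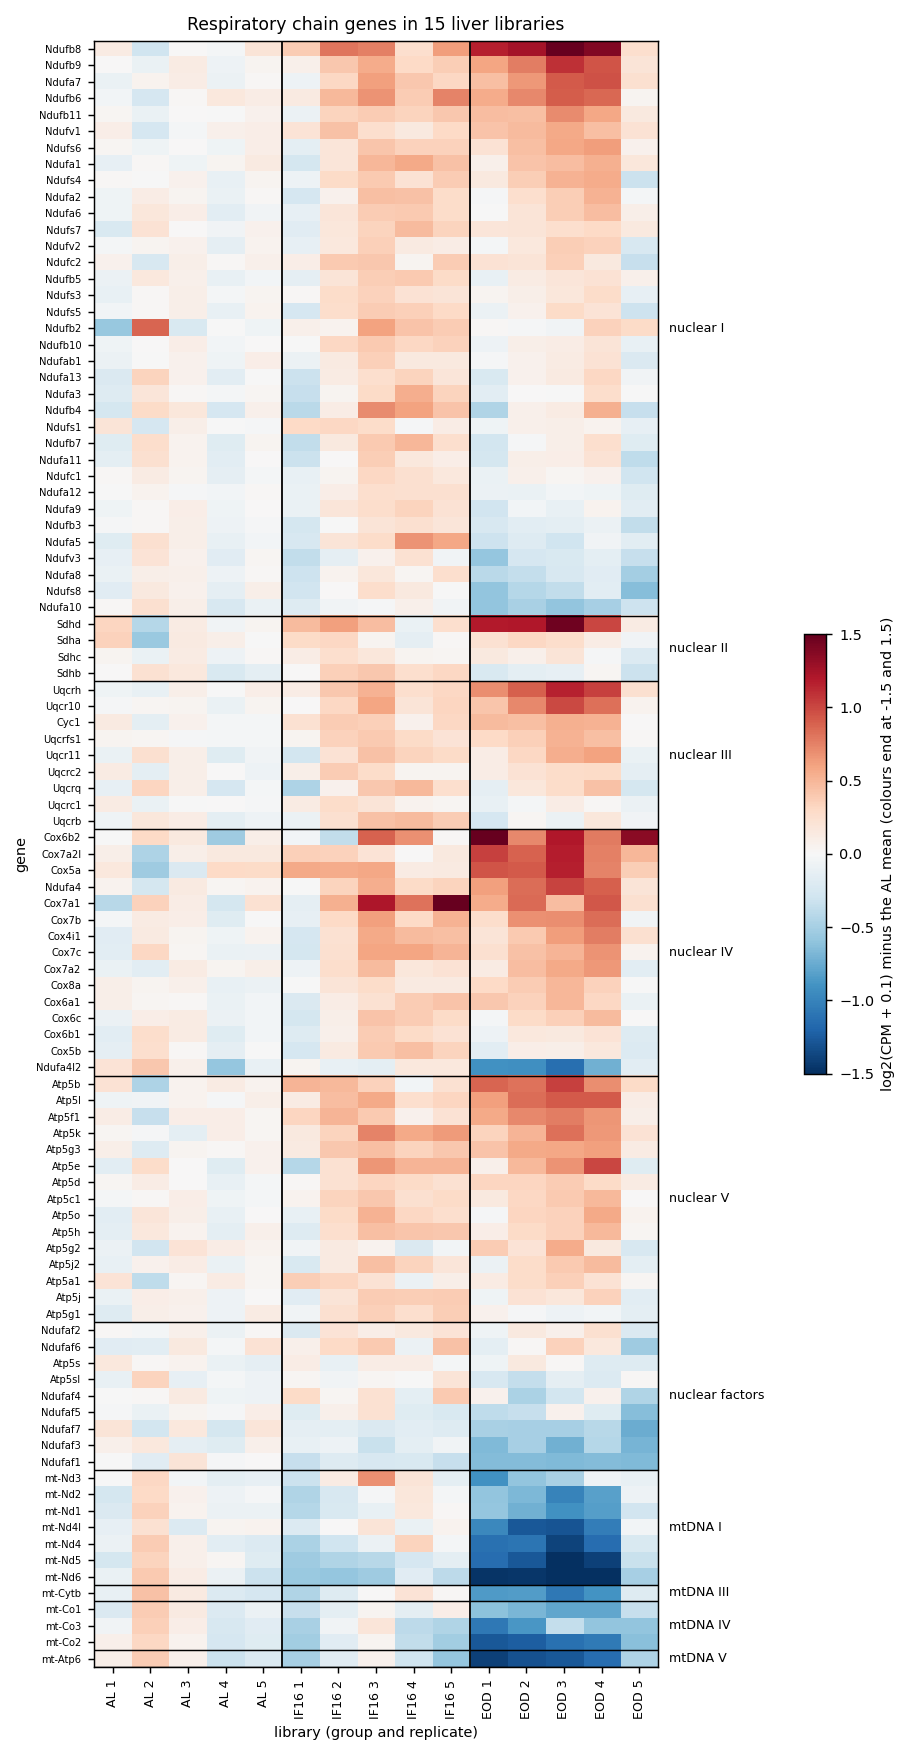
Rows are the tested members, but for 1 not reported here, by complex and genome, columns the 15 libraries; colour is log2(CPM + 0.1) minus the AL mean of the gene, red for higher and blue for lower, and genes run from high to low log2 fold change of EOD against AL within each block. The red tops of the nuclear blocks and the blue mitochondrial blocks are strongest in EOD replicates 1 to 4 and paler in replicate 5, while Ndufaf1 is as low in replicate 5 as in the others.

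Genes that act with the respiratory chain were counted from lists of names, to be read against 17.6% of all genes called higher and 17.6% lower in EOD against AL. Of 14 tested genes of mitochondrial DNA transcription and replication, 4 were higher and 1 lower in EOD than in AL. Tfb2m, a transcription factor of mitochondrial DNA, rose by 0.70 on the log2 scale (SE 0.13, adjusted p 0.000572), Tefm, its elongation factor, by 0.64 (adjusted p 0.00173), and Peo1, the replicative helicase, by 0.53 (adjusted p 0.00159). Of 21 genes for processing, tailing and decay of mitochondrial RNA, 3 were higher and 5 lower. Trmt10c, of the enzyme that cuts tRNAs out of the long transcripts, rose by 0.74 (adjusted p 0.00087), and Fastk and Tbrg4, of a family that handles mitochondrial RNA, fell by 0.67 (adjusted p 0.00154) and 0.41 (adjusted p 0.00429) on the log2 scale.

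Among 16 nuclear regulators of respiratory genes, 3 were higher and 1 lower. Ppara, the fatty acid sensing receptor of fasting liver, rose by 0.92 (SE 0.11, adjusted p 1.93e-05), from 24.99 ± 4.82 CPM in AL to 47.1 ± 3.29 in EOD (SD, n = 5), and Sirt3, a mitochondrial deacetylase, by 0.56 (adjusted p 0.00253). Of 40 assembly factors outside the member rule, 7 were higher and 6 lower; Cox18, Acad9 and Cox10 were lower, by −0.63, −0.48 and −0.64. Of 28 electron donors, carriers and related genes, a list that includes the member Ndufa4, 7 were higher and 5 lower. Etfdh, which passes electrons of fatty acid oxidation to ubiquinone, rose by 1.13 (SE 0.17, adjusted p 8.32e-05), from 118 ± 30.3 CPM in AL to 259.7 ± 36.4 in EOD, Nnt rose by 0.65 (adjusted p 0.00043), and Coq7, of ubiquinone synthesis, fell by 0.47 (adjusted p 0.000555). Of 15 genes of the tricarboxylic acid cycle, 5 were higher and 4 lower, among them Idh2 and Suclg1 with log2 fold changes of 0.90 and 0.67 and Cs, citrate synthase, with −0.61 (adjusted p 0.00026). In IF16 against AL these 6 lists, in the same order, had 0, 0, 1, 0, 0 and 1 genes higher and 0, 1, 0, 1, 0 and 1 lower, with 1.4% and 2.1% of all genes so called. In EOD against IF16 they had 4, 1, 2, 2, 3 and 1 higher and 0, 2, 0, 3, 1 and 0 lower, with 7.96% and 8.15% of all genes so called. No gene of the table matched the names of mitochondrial rRNAs and tRNAs, which were not analysed here.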

How the data were processed

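Raw counts per gene were deposited by the authors for 15 libraries, and FPKM values as well, which in 100% of cells equal the count over gene length and library total (relative tolerance 1e-06). The submitters' processing notes list STAR 2.5, HTSeq 0.6.1, DESeq2 and mm10, without roles, and no source at hand states the strand mode of counting. Counts were tested with edgeR 4.0.16 in R 4.3.3: filterByExpr (minimum count 10), TMM scaling, and 1 robust quasi-likelihood fit of all 15 libraries with group means, with Benjamini-Hochberg adjustment over 13837 genes at 0.05. Every SE is the log2 fold change divided by the root of its F statistic. Replicate pairs differed by more than sampling noise in every case (chi-square per degree of freedom 24.4 to 214). The test was tried on simulated data. The symbol rule, the gene lists and their order were chosen with earlier results of these data known. Named members are, per complex, genome and comparison, up to 4 with the smallest p past the threshold, else the one with the smallest p, plus all complex II genes, the most abundant nuclear member and the tissue forms; from other lists up to 3 with the smallest p. Others, including Ndufv3, Ndufb2 and Shmt2, were named after their values were seen. Alternatives were other scalings, filters, DESeq2 1.42.0, limma 3.58.1 on log2(FPKM + 1) or log2(FPKM + 0.1), the 2 groups alone, a replicate block and libraries left out. For 1 member, included in the counts, no result is reported here. Sequences are from RefSeq (GRCm38.p6) and GENCODE M21.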

Additional observations from a re-analysis of the deposited data

Results flagged for a closer look

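A library that stood apart from the other 4 of its group by Dixon's 95% limit was found in 13 of 141 sets of 5 libraries examined, where chance gives about 1 in 20. The sets are not independent, since they share libraries. In AL, replicate 2 was low for 4 nuclear genes: Atp5b at 487 CPM (the others 696 to 781), Atp5f1 at 205 CPM (265 to 281), Atp5g3 at 413 CPM (478 to 502) and Cox7a2l at 49.8 CPM (73.1 to 76.4). It was high for mt-Nd3 at 67.3 CPM (49.0 to 53.7). In EOD, replicate 5 was high for 6 mitochondrial genes: mt-Atp6 at 243 CPM (128 to 152), mt-Co2 at 250 CPM (161 to 185), mt-Cytb at 18262 CPM (9898 to 11677), mt-Nd4 at 9406 CPM (4193 to 5154), mt-Nd4l at 15.4 CPM (6.43 to 8.11) and mt-Nd6 at 1944 CPM (660 to 997). The same library was low for Cyc1 at 209 CPM (285 to 301) and Ndufaf7 at 8.12 CPM (9.64 to 10.2).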

How the results depend on the processing

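The 32 differences between EOD and AL that the naming rule picked and that were called kept their direction and passed under all 29 other settings; Ndufa8 and Ndufv3, outside the rule there, did not pass without EOD replicate 5. Between EOD and IF16, 13 of 25 did; the others, among them Sdhd, Uqcrh, Ndufa4, mt-Nd1, mt-Nd2, mt-Nd3 and mt-Nd5, missed it under 1 or more settings (mt-Nd2 and mt-Nd3 each held in 5 of 15 fits without 1 library, Ndufa4 in 6, Ndufaf7 in 4), and the cause was not tested. With 1 library left out, all members higher in EOD than in AL, named or not, ranged from 23 to 39, and all lower from 17 to 19. In the same fits, members higher in EOD than in IF16 ranged from 1 to 17, and nuclear members lower from 5 to 14. Without AL replicates 4 and 5 and EOD replicate 5, 14 were higher. Members higher in IF16 than in AL numbered 0 to 7, and lower 0 to 1, with 1 library left out. Higher in IF16 than in AL were 2 on library totals without TMM and with limma on log2(FPKM + 1) or log2(FPKM + 0.1), 5 with DESeq2, 3 with the 2 groups alone, 0 without AL replicates 4 and 5, and 3 without these and EOD replicate 5. Ndufaf1 was the 1 member lower with DESeq2, limma at either pseudocount, or a filter of 1 CPM, and mt-Nd6 was the 1 member lower without AL replicates 4 and 5 and EOD replicate 5.

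Replicate numbers shared across groups were not taken as pairs: deviations of 5 of 15 same-number pairs correlated above 0.1 (range −0.13 to 0.22), and in 5 of the 15 the own number gave the highest correlation. With the replicate number as a block, 30 members were higher and 19 lower in EOD than in AL, 5 and 21 against IF16, and 1 and 0 in IF16 than in AL. Every one of these is within 1.5 times the unblocked count, and between EOD and IF16 Ndufaf7, Cox6b2 and mt-Nd3 no longer passed while Ndufb9 did. Uncalled differences near 0 changed sign: Ndufa4l2 in IF16 against AL was 0.0013 with limma on log2(FPKM + 1), with or without the filter, and 0.014 on log2(FPKM + 0.1), and from −0.13 to 0.10 with 1 library left out. Likewise mt-Cytb ranged from −0.18 to 0.037, Sdha from −0.029 to 0.18, and Sdhc in EOD against IF16 from −0.11 to 0.0052. The median of all genes stayed between −0.019 and 0.0081 under every scaling. Cox4i2, Cox6a2, Cox8b, Cox8c, Cox7b2 and mt-Atp8 did not pass the count filter and were not tested.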
